A study of Mus musculus with 4 samples.

Results

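The genes described here are markers of the epicardium, the outer cell layer of the heart, together with uroplakins and simple keratins that such a covering layer makes: Wt1, Tcf21, Upk3b, Upk1b, Krt8, Krt18, Krt19, Podxl and Bnc1. Members were all probe sets whose platform annotation gave 1 of these 9 symbols and no other. This gave 12 probe sets for 8 genes, of 20380 such probe sets for 12393 genes in the table. Upk1b, a tetraspanin of the uroplakin family, was matched by no such probe set and was not analysed here. Krt8 had 3 probe sets, Upk3b and Podxl 2 each, and the other genes 1 each.

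Hearts of wild-type C57BL/6 mouse embryos, between embryonic days 10.5 and 11.0, were dissected into the atrioventricular (AV) junction, where the valve cushions form, and the ventricular region. Tissue of about 80 hearts was pooled per region, and 230 ng (AV junction) or 250 ng (ventricular region) of RNA was amplified and read on Affymetrix MOE430A arrays. Each region had 2 arrays, named 1a and 1b, so 4 arrays carry the comparison. The labels name no allele, drug or transgene, and do not say that 1a and 1b came from separate pools, so the p-values measure only the spread between arrays, which may be technical. Values are intensities scaled to a trimmed mean of 500 on every array, mean ± SD is over n = 2 arrays, and a positive log2 fold means higher in the AV junction. Readings are listed as AV arrays 1a and 1b against ventricular arrays 1a and 1b.

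The epicardium is a mesothelium that spreads over the heart from the proepicardium, a cluster of cells near the venous pole. It keeps epithelial traits, among them keratin filaments and apical glycoproteins, until some of its cells undergo epithelial to mesenchymal transition and enter the heart wall. Those cells give rise to fibroblasts and vascular mural cells, and the AV groove is a known site of their entry. Wt1 and Tcf21 are transcription factors of this lineage, while Krt8, Krt18 and Krt19 encode keratins of simple epithelia in general and are not limited to epicardium.

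Krt8 and Krt18 encode the type II and type I partners of the same filament and lie next to each other on chromosome 15, with 0 protein-coding genes between them in the RefSeq annotation of GRCm38.p6. Upk3b encodes a membrane protein of urothelium and mesothelium. The bases just before the annotated starts of these genes are shown to give the sequence context of the keratin pair and of the uroplakin described next; the expression values were not tied to these bases. With Tcf21 and Bnc1, 5 of the 9 genes were matched to a RefSeq promoter sequence. Capitals mark AGGTCA or its reverse complement, the half-site that nuclear receptors such as those for retinoic acid bind, since the epicardium is a source of retinoic acid. All are the 250 bases upstream of the RefSeq start in GRCm38.p6, 5′ to 3′ on the gene's strand.
Krt8, chr15:102004343-102004592, minus strand: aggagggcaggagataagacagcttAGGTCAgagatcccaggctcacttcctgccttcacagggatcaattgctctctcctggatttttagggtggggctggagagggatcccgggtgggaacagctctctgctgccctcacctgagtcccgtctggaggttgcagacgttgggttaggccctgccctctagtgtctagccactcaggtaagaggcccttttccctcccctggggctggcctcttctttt
Krt18, chr15:102027966-102028215, plus strand: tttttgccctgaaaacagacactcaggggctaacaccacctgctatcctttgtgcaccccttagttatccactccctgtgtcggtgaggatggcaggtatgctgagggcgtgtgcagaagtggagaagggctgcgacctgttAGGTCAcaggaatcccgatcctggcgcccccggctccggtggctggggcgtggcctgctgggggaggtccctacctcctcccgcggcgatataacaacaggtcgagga
Upk3b, chr5:136038246-136038495, plus strand: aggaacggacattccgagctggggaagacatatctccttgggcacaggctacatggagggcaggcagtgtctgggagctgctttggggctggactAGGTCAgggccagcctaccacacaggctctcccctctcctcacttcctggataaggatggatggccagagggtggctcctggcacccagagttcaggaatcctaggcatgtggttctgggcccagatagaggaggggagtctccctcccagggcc

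Windows of 300 bases, which add 50 bases after the start, were searched on both strands for 7 motifs, chosen after the sequences had been seen. AGGTCA was present in the windows of Krt8, Krt18 and Upk3b, 1 match in each, but not in those of Tcf21 and Bnc1. It was present in 16.3% of 32851 RefSeq windows of the same length. The window of Tcf21 held no match to any of the 7 motifs. The E-box CANNTG, the motif type of basic helix-loop-helix factors such as Tcf21, had 3 matches in Krt8 and 1 each in Krt18 and Upk3b, and was present in 72.3% of windows. TATAAA occurred in Krt8 alone of the 5 members, as 2 overlapping matches across its annotated start, and in 13.6% of windows. GGGCGG, the GC box of Sp factors, occurred in Bnc1 alone, with 6 matches, and in 35.7% of windows. GGAATG, the motif of TEAD factors, had 1 match, in Upk3b, and was present in 14.7% of windows. TGANTCA (AP-1) and GCGTGGGNG (the type of site bound by Wt1 and Egr factors) had 0 matches in these windows, against 7.81% and 1.9% of all. These are matches of letters in a short window and were not tied to any binding data.

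Across the members, the simple keratins Krt18 and Krt19 were lower in the AV junction, and no other member passed the test. Of the 12 probe sets, 2 were lower and 0 higher at an adjusted p of at most 0.05, and 10 did not pass (limma, Benjamini-Hochberg over 13403 probe sets). That is 16.7% lower, where 6.58% of all probe sets tested were lower, 7.24% were higher and 13.8% passed in either direction. At an unadjusted p under 0.05 there were 3 lower and 1 higher. The median log2 fold of the 12 was −0.23, beside −0.07 for all probe sets tested. With a floor of 300 the median of all probe sets tested was 0.008, so this comparison value depended on how many dim probe sets were included. In 8 of the 12 (66.7%) the arrays of the regions did not overlap, 5 with the AV junction lower and 3 with it higher, beside 61.2% of all probe sets tested, 35.1% lower and 26.1% higher. With 2 arrays a region, the smallest p of an exact two-sided permutation test is 0.333, so such separation is no test by itself. Scaling to the median instead of the trimmed mean raised the median of all probe sets tested to 0.09, and Krt18 and Krt19 were still the 2 called lower.

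Every member probe set passed the filter of a mean scaled intensity of 100, and each was above the brightest Bacillus subtilis control on all 4 arrays. This control, a transcript foreign to the mouse, read between 52.6 and 58.6 on the AV arrays and between 97.9 and 104 on the ventricular arrays. The lowest reading of any member was 166, for Podxl 1417396_at on AV array 1b. Arrays of a region correlated at a Pearson's r of 0.981 (AV) and 0.979 (ventricular) across probe sets, and arrays of different regions at 0.947 to 0.950.

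**Figure D1:**
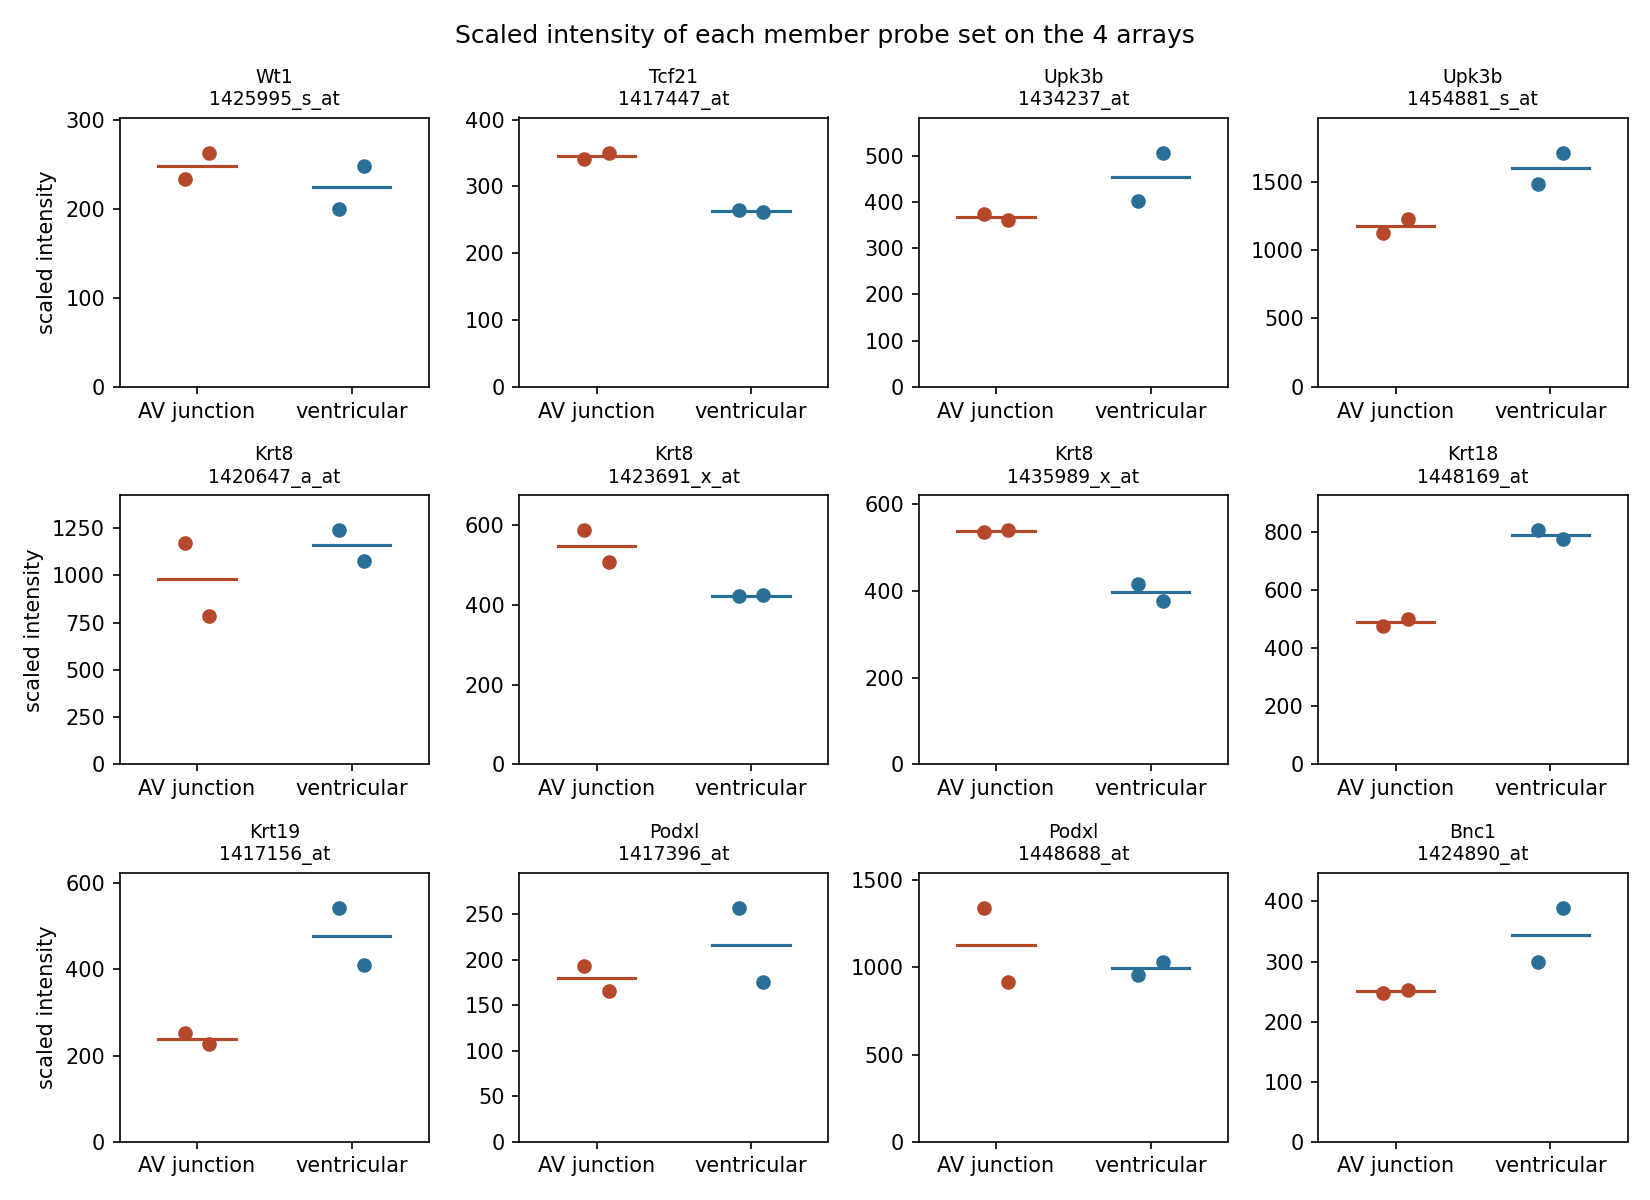
Scaled intensity (linear axis from 0) of each of the 12 member probe sets, with AV junction arrays in red, ventricular arrays in blue, array 1a left and 1b right in each pair, and the mean of 2 arrays as a line. Krt18 and Krt19 lie lower on both AV arrays than on either ventricular array, whereas the arrays of Wt1, Podxl and Krt8 1420647_a_at overlap between regions.

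Among the transcription factors, Wt1, the zinc finger factor that marks the epicardium and also the developing kidney and gonad, read 234 and 263 against 200 and 248. The readings of the regions overlapped. The log2 fold was 0.13 (SE 0.19, 95% interval −0.32 to 0.57; limma, adjusted p = 0.683). Without ventricular array 1a it was −0.0010, so its direction rested on that array. The interval leaves room for a difference of either sign.

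Tcf21, a basic helix-loop-helix factor that is needed for epicardial cells to become cardiac fibroblasts, read 341 and 351 against 265 and 262. Both AV arrays were above both ventricular arrays. The log2 fold of 0.33 (SE 0.16, 95% interval −0.03 to 0.70) did not pass, with a limma adjusted p of 0.193. Among all probe sets tested, 83.4% had a lower log2 fold.

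Bnc1 encodes basonuclin 1, a zinc finger protein of stratified epithelia, germ cells and mesothelium. Its readings were 248 and 253 against 299.7 and 390. The regions did not overlap, but the ventricular arrays stood 0.38 apart in plain log2 intensity, where the means of the regions stood −0.46 apart. Its log2 fold was −0.38 (SE 0.18, 95% interval −0.81 to 0.04; limma, adjusted p = 0.194), so Bnc1 and Tcf21, both without a passing test, had values of opposite sign.

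The uroplakin Upk3b was read by 2 probe sets, and both were dimmer on the AV arrays. The brighter, 1454881_s_at, read 1127 and 1226 against 1484 and 1711, with no overlap. Its log2 fold of −0.42 (SE 0.12, 95% interval −0.70 to −0.15) just missed the threshold (limma, adjusted p = 0.0552). It passed with quantile normalisation (limma, adjusted p = 0.048), with the values as deposited (0.039) and with a floor of 300 (0.0395). It also passed with the replicate number as a block (0.0237). That block raised the calls over all probe sets to 1344 higher and 1375 lower, against 970 and 882. In the other 9 alternatives Upk3b 1454881_s_at did not pass. With median scaling its log2 fold shrank to −0.27 (limma, adjusted p = 0.204), and with 1 array left out it ran from −0.52 to −0.32. Scaling had multiplied every array by nearly the same factor (3.351 to 3.354). The fit to values as deposited therefore mainly raised the floor and the constant added before the log, relative to the readings.

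The second Upk3b probe set, 1434237_at, read 374 and 360 against 402 and 507. Its AV readings lay below its ventricular readings, although ventricular array 1a came close to AV array 1a. The log2 fold was −0.27 (SE 0.16; limma, adjusted p = 0.300). Within each array the ratio of the Upk3b probe sets differed by 0.14 on the log2 scale between regions, with overlap. Probe sets ending in _s_at can match several transcripts, and those ending in _x_at share probe sequence with other transcripts.

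Krt18 (1448169_at), the type I keratin of simple epithelia, was lower in the AV junction. The readings were 479 and 503 against 808 and 777. The regions stood well apart and arrays of a region nearly coincided (490.6 ± 17.1 against 792 ± 21.6). The ventricular region was 1.56-fold higher, which is a log2 fold of −0.64 (SE 0.13, 95% interval −0.93 to −0.35; limma, adjusted p = 0.0176). With 1 array left out the log2 fold stayed between −0.67 and −0.61. The adjusted p rose to 0.0604 without AV array 1a, to 0.0921 without ventricular array 1a and to 0.068 without ventricular array 1b. It was 0.048 without AV array 1b, and 0.0567 with a variance prior that does not follow intensity.

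Krt19 (1417156_at), the smallest type I keratin and a marker of simple and ductal epithelia and of mesothelium, had the lowest log2 fold of the members. The readings were 253 and 227 against 543 and 411. Both AV arrays were below both ventricular arrays, and the ventricular arrays differed from each other more than the AV arrays did (240 ± 18.2 against 477 ± 93.5). The ventricular region was 1.81-fold higher, which is a log2 fold of −0.85 (SE 0.18, 95% interval −1.28 to −0.43; limma, adjusted p = 0.023). Among all probe sets tested 3.31% had a lower log2 fold, and 8.18% had one lower than that of Krt18.

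The size for Krt19 depended on single arrays. Its log2 fold was −1.04 without ventricular array 1b (adjusted p = 0.0362) and −0.67 without ventricular array 1a (adjusted p = 0.128). Leaving out an AV array also ended the call (adjusted p of 0.0545 for 1a and 0.0782 for 1b). With no filter on low values it was 0.0648, and with a variance prior that does not follow intensity 0.0583. The direction was the same in each of these fits.

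**Figure D2:**
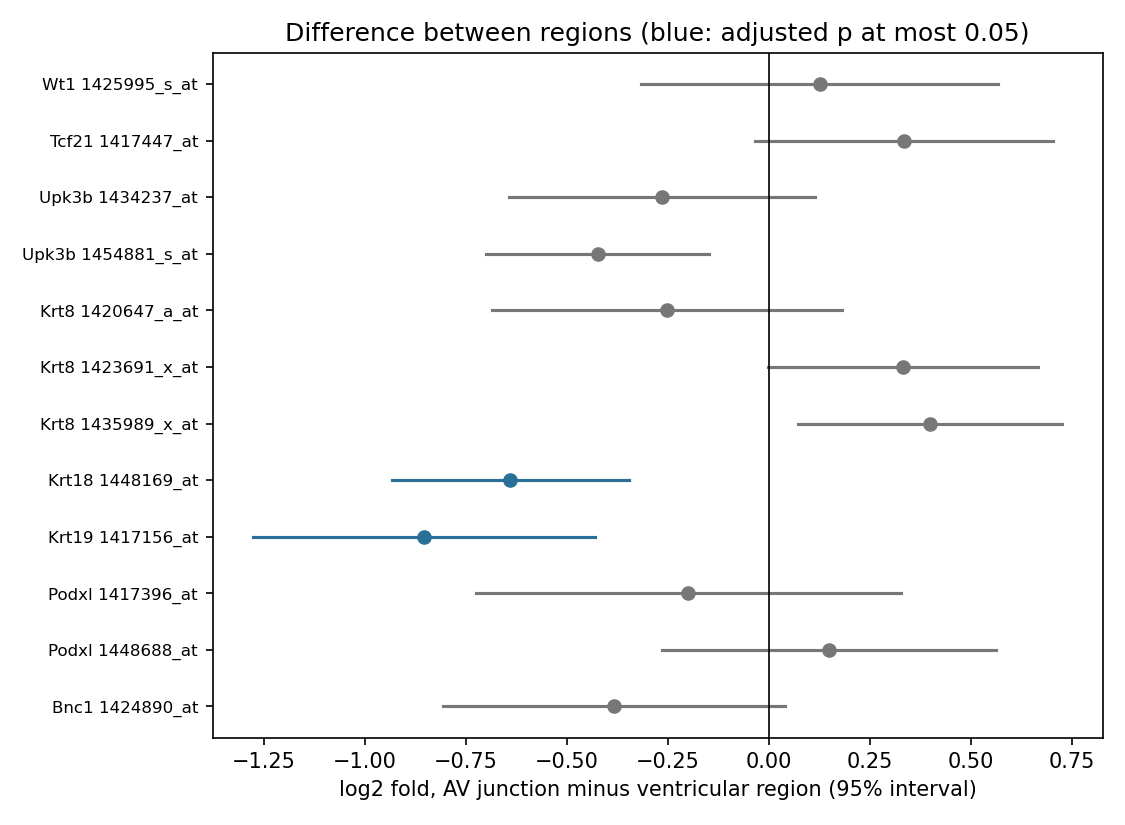
Log2 fold (AV junction minus ventricular region) of each of the 12 member probe sets, with the 95% interval of the limma fit over 4 arrays; blue marks an adjusted p of at most 0.05. Krt18 at −0.64 and Krt19 at −0.85 are blue, while the Krt8 probe sets lie on both sides of 0, at −0.25, 0.33 and 0.40.

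Krt8, the type II partner of Krt18, gave no single answer. Its brightest probe set, 1420647_a_at, read 1172 and 787 against 1238 and 1076. The regions overlapped, and the AV arrays differed from each other by 0.57 on the log2 scale. The log2 fold was −0.25 (SE 0.19, 95% interval −0.69 to 0.18; limma, adjusted p = 0.385). It was 0.02 without AV array 1b and −0.53 without AV array 1a.

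The other Krt8 probe sets read higher in the AV junction. On 1423691_x_at the readings were 588 and 507 against 422 and 425, a log2 fold of 0.33 (limma, adjusted p = 0.163). On 1435989_x_at they were 536 and 540 against 416 and 376, a log2 fold of 0.40 (SE 0.14; limma, adjusted p = 0.101). Regions did not overlap on either probe set, and neither passed. Median scaling of the arrays raised the last to 0.56 with an adjusted p of 0.0363, the only setting in which a member was called higher.

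Within each array, the log2 ratio of Krt8 1423691_x_at to Krt8 1420647_a_at was −0.99 and −0.63 against −1.55 and −1.34. For 1435989_x_at over 1420647_a_at it was −1.13 and −0.54 against −1.57 and −1.52. Neither ratio overlapped between regions (differences of 0.63 and 0.71). An exact two-sided permutation test gave 0.333 for each, the smallest p that 2 against 2 arrays allow. The RefSeq table names 1 pseudogene after Krt8 and 0 after the other members. Its part in these readings was not tested.

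Krt18 was set against its partner in the same way. The log2 ratio of Krt18 1448169_at to Krt8 1420647_a_at was −1.29 and −0.65 against −0.62 and −0.47, a difference of −0.43 (exact two-sided permutation p = 0.333, the smallest possible). AV array 1b nearly met the ventricular arrays. Krt18 was not set against Krt8 1423691_x_at or 1435989_x_at. Their log2 folds of 0.33 and 0.40, neither passing, were opposite in sign to that of Krt18. The ratio of Krt19 to Krt18 was −0.92 and −1.15 against −0.57 and −0.92, a difference of −0.29, with AV array 1a at the level of ventricular array 1b (same exact p). That difference was smaller than the one between the ventricular arrays.

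Podxl, which encodes the sialomucin podocalyxin of apical cell surfaces in mesothelium, endothelium and kidney podocytes, showed no difference that its arrays could resolve. Its brighter probe set, 1448688_at, read 1340 and 913 against 957 and 1032. The ventricular readings lay between the AV readings. The log2 fold of 0.15 (SE 0.18, 95% interval −0.26 to 0.56; limma, adjusted p = 0.596) became −0.12 when AV array 1a was left out and 0.41 when AV array 1b was.

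Podxl 1417396_at read 193 and 166 against 257 and 175, again with overlap. Its log2 fold was −0.20 (SE 0.22, 95% interval −0.73 to 0.33; limma, adjusted p = 0.575), and 0.02 without ventricular array 1a. The probe sets of Podxl thus had values of opposite sign, each with an interval that includes 0.

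**Figure D3:**
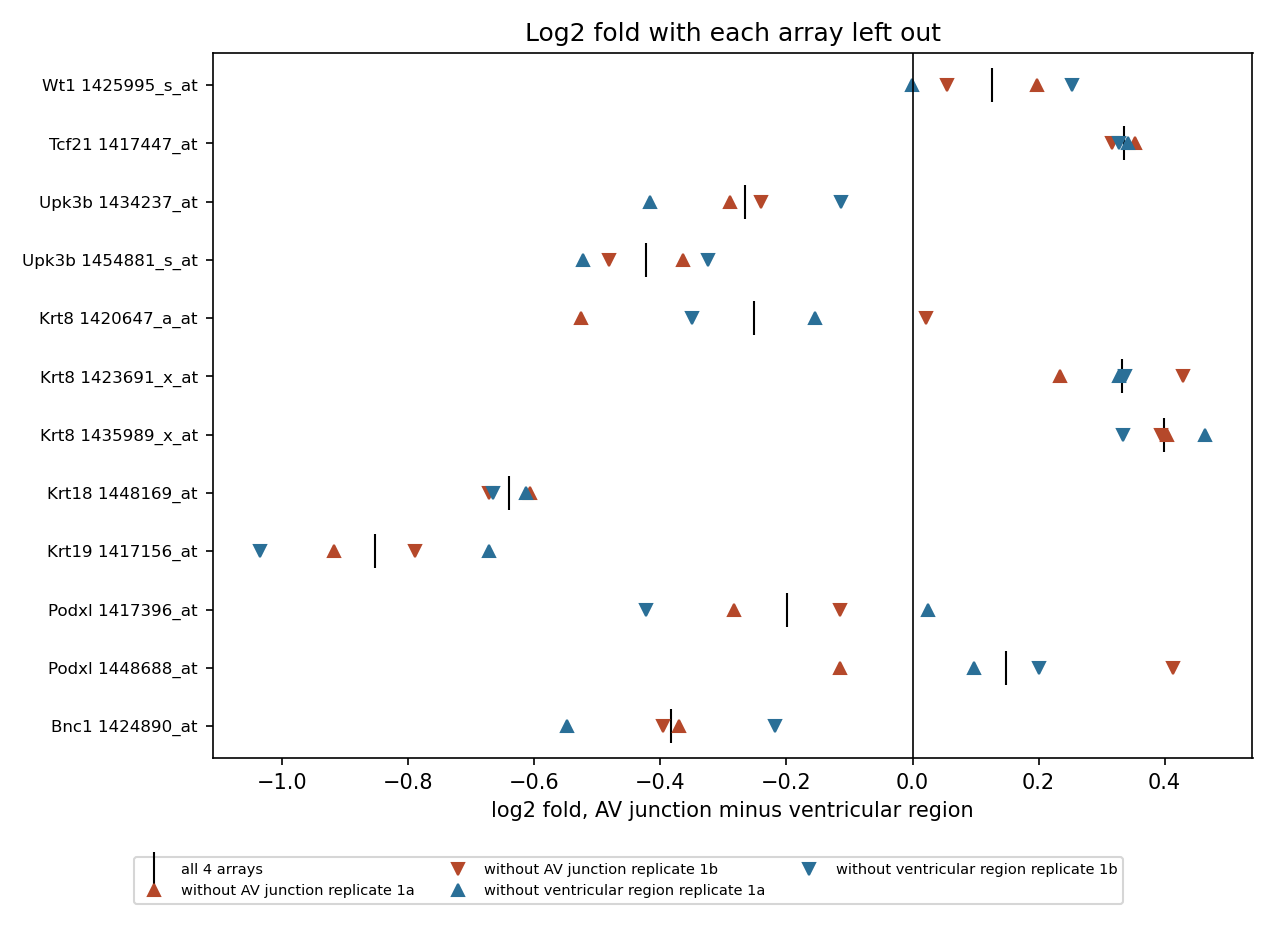
Log2 fold (AV junction minus ventricular region) of each member probe set with all 4 arrays (bar) and with each array left out in turn (red triangles for an AV array, blue for a ventricular array, pointing up for 1a and down for 1b). Krt18 stays between −0.67 and −0.61 and Krt19 between −1.04 and −0.67, whereas Wt1, Krt8 1420647_a_at and both probe sets of Podxl reach the other side of 0.

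Genes outside the membership were read from lists of related genes, each by its brightest probe set. Of 8409 genes so tested, 15% passed, 8.47% higher and 6.54% lower, and their median log2 fold was −0.06. Over the 8 member genes the median was −0.32, with 2 lower and 0 higher (at an unadjusted p under 0.05, 3 and 0).

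Among other keratins Krt7 and Krt80 were lower and Krt10 higher. Of 18 listed, 17 had a probe set, 5 passed the filter, 2 were lower, 1 was higher and 2 did not pass, with a median log2 fold of −0.70. Krt7, another type II keratin of simple epithelia, read 245 and 224 against 501 and 392 (log2 fold −0.80; limma, adjusted p = 0.0265). Krt80, a type II keratin, read 229 and 259 against 436 and 422 (log2 fold −0.70, adjusted p = 0.0281). In both genes the regions were separate. Of the fits with 1 array left out, Krt7 passed only in that without ventricular array 1b (adjusted p otherwise up to 0.142). Krt80 passed in none of them (up to 0.124) and missed with median scaling (0.0524).

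Krt10, a type I keratin of differentiating epidermis, ran the other way, at 489 and 466 against 224 and 214. Its log2 fold was 0.97 (limma, adjusted p = 0.00883), and it passed in each fit with 1 array left out (highest adjusted p 0.0452). Krt14 and Krt6a, of stratified epithelia, did not pass (log2 folds −0.77 and −0.47). The 12 keratins left out by the filter included 8 at or below the control on all 4 arrays: Krt23, Krt4, Krt5, Krt6b, Krt13, Krt15, Krt16 and Krt17. Krt20, also left out, was above the control on all 4 arrays, at 60.0 and 77.1 against 142 and 121. Krt1, Krt2 and Krt12, likewise left out, overlapped between regions.

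**Figure D4:**
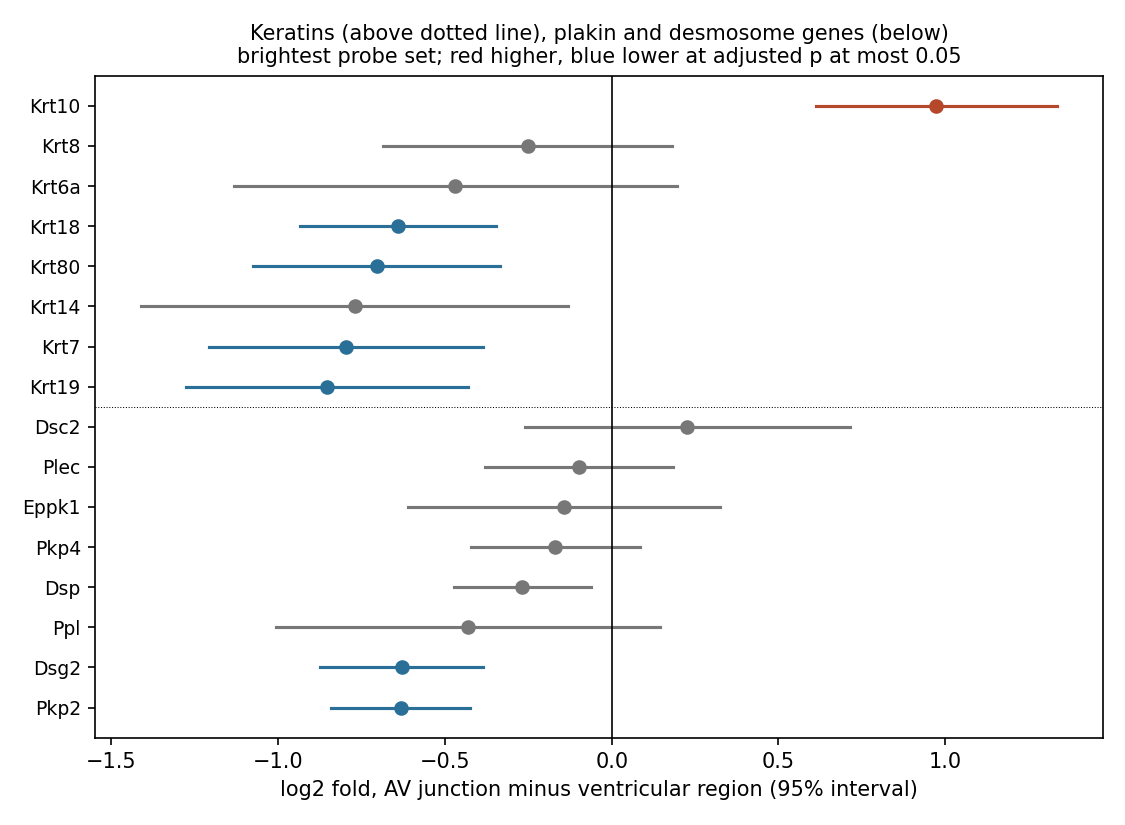
Log2 fold (AV junction minus ventricular region) with the 95% interval for the keratins that passed the filter (above the dotted line) and for genes of plakins and desmosomes (below it), each by its brightest probe set; red marks genes higher and blue genes lower at an adjusted p of at most 0.05. Krt19, Krt7, Krt80 and Krt18 lie between −0.85 and −0.64, Krt10 at 0.97, and Pkp2 and Dsg2 at −0.63. Krt14 at −0.77 lies in the range of those keratins but did not pass, nor did Krt6a at −0.47 and Krt8 at −0.25.

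Keratin filaments are anchored by plakins and at desmosomes. Of 12 such genes, 8 were tested, 2 were lower and 0 higher (6 did not pass), with a median log2 fold of −0.22 (unadjusted p under 0.05 in 3 lower and 0 higher). The 2 were the plakophilin gene Pkp2 (log2 fold −0.63; limma, adjusted p = 0.00562) and the desmoglein gene Dsg2 (−0.63, adjusted p = 0.00999), both of which also serve heart muscle cell junctions. Dsg2 missed without ventricular array 1a (adjusted p = 0.0649). Dsp, the plakin desmoplakin itself, had a log2 fold of −0.27 and did not pass (0.084). Among 7 tested genes of other intermediate filaments 0 passed (limma; 2 lower at an unadjusted p under 0.05), and the brightest, Vim and Lmnb1, had log2 folds of −0.08 and −0.31. Vim, the mesenchymal filament protein vimentin, had 2 dimmer probe sets that were higher, with log2 folds of 0.53 (limma, adjusted p = 0.0103) and 0.39 (adjusted p = 0.0496), so its probe sets did not give 1 call.

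Other genes of epicardium and mesothelium did not move as 1 group. Of 15 listed, 12 had a probe set and 9 were tested, of which 3 were higher in the AV junction and 1 lower (5 did not pass), with a median log2 fold of 0.10. Higher were Gata5, a zinc finger factor (830 and 807 against 440 and 455; log2 fold 0.80, limma adjusted p = 0.00831), Aldh1a1, a retinaldehyde dehydrogenase (0.59, 0.0228), and Pdpn, a mucin-type glycoprotein (0.49, 0.0478). Lower was Ezr, the membrane to actin linker ezrin (−0.52, 0.0267). A second probe set of Gata5 gave 0.14 and a second probe set of Ezr −0.43, and neither passed.

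With 1 array left out, Gata5 passed in every fit, Aldh1a1 only in the fit without AV array 1a (adjusted p otherwise up to 0.094), Ezr only without AV array 1b (up to 0.129) and Pdpn in none (up to 0.17). Pdpn also missed with quantile normalisation (0.0745) and Ezr with median scaling (0.0684). Tbx18, a T-box factor of the proepicardium and epicardium, and Aldh1a2, an enzyme of retinoic acid synthesis, had log2 folds of 0.10 and −0.10 (adjusted p = 0.757 and 0.759). Msln and Scx were at or below the control on all 4 arrays.

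Of 4 other uroplakins, 3 had a probe set and 1 was tested: Upk2 read 533 and 599 against 493 and 407 (log2 fold 0.30; limma, adjusted p = 0.217, also over 0.05 unadjusted). Of 6 tested relatives and partners of podocalyxin, 1 was lower, again Ezr, and 0 were higher (1 higher at an unadjusted p under 0.05). Cd34, its sialomucin relative, had a log2 fold of 0.30 (adjusted p = 0.418).

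Genes of epithelial junctions and polarity included Tjp1, which encodes the tight junction scaffold ZO-1 (log2 fold 0.89; limma, adjusted p = 0.00177), and F11r, a junctional adhesion molecule (0.86, 0.0113), both higher. The apical polarity gene Crb3 was lower (−0.59, 0.0435). These were 2 higher and 1 lower of 11 tested, and 8 did not pass, with a median of 0.09. F11r missed the threshold when AV array 1b or ventricular array 1a was left out (adjusted p up to 0.0569). Crb3 missed it when any 1 array was left out (up to 0.192), with quantile normalisation (0.0513) and with median scaling (0.0961). Cdh1, Epcam, Cldn3, Cldn4, Cldn7, Ocln and Tjp3 did not pass the filter. Of these, Cldn3 read 10.4 and 16.8 against 148 and 107, above the control on the ventricular arrays only. Its dimmer probe sets stayed below the control. Cldn4, Cldn7, Ocln and Tjp3 were also lower on the AV arrays without overlap, and Cdh1 and Epcam overlapped. The control was itself brighter on the ventricular arrays.

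Some markers of other cells that could supply these transcripts moved with region, and the part of those cells in the results on Krt18 and Krt19 was not tested. Hepatic markers (9 of 10 with a probe set) summed to 7021 to 7328 against 702 to 741, and of 5 tested Afp, Alb and Ttr were higher (Alb not without AV array 1a, adjusted p = 0.0538). Apoa2 and Hnf4a did not pass (log2 folds 0.28 and −0.37), and Fgb was at or below the control throughout. Apoa1 (103 and 117 against 11.7 and 10.7) and Ahsg (65.0 and 66.7 against 21.5 and 46.3) were left out by the filter. Both were above the control on the AV arrays only, whereas Apob, also left out, overlapped between regions. Most of the AV sum was Afp, at 5214 and 4665 against 17.1 and 18.8. Foregut and lung endoderm markers (9 of 10) summed to 1341 to 1360 against 963 to 1243. Gata6 alone read 923 and 904 against 553 and 607 within these sums, whereas Foxa2 and Cldn6 did not pass (log2 folds 0.06 and −0.58). Sox2, left out by the filter, read 128 and 95.5 against 24.1 and 7.38, above the control on the AV arrays only. Foxa1, also left out, overlapped between regions. Of 3 tested, Gata6 was higher (not with any 1 array left out, adjusted p up to 0.0933), and Shh, Nkx2-1, Cdx2 and Pax9 were at or below the control on all arrays. Surface ectoderm markers (6 of 7) summed to 299 to 341 against 496 to 571, none of 2 tested passed (limma; 2 lower at an unadjusted p under 0.05), and Krt5, Krt15, Trp63 and Tfap2c were at or below the control. Such sums include readings at or below the control, which itself was brighter on the ventricular arrays (58.6 and 52.6 against 97.9 and 104). Small sums of dim markers are therefore hard to compare between regions.

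Markers of ventricular muscle (8 of 8) summed to 36431 to 39964 against 103922 to 111302, and 7 of 7 tested were lower. Gja5 was at or below the control throughout. Erythroid markers (7 of 8) summed to 39311 to 40718 against 70466 to 78020, with 5 of 7 lower and 0 at or below the control throughout. Of these Hbb-y lost its call with any 1 array left out (adjusted p of 0.0813 to 0.133), with quantile normalisation (0.0876) and with median scaling (0.106). Cushion mesenchyme markers (8 of 8) summed to 7120 to 9091 against 1085 to 1298, with 7 of 8 higher and 0 at or below the control throughout. In these bulk samples, fewer cells of a type and less RNA per cell cannot be told apart.

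Endothelial and endocardial markers (10 of 10), cells that also make Podxl, summed to 4351 to 4810 against 3205 to 3502. Tek and Nfatc1 were higher of 8 tested (Tek not without ventricular array 1a, adjusted p = 0.0547; 3 higher and 1 lower at an unadjusted p under 0.05). The gene with the unadjusted lower value was Emcn, the endothelial sialomucin endomucin, at 103 and 131 against 244 and 203 (log2 fold −0.71; limma, adjusted p = 0.073). Pecam1 and Tie1 were at or below the control on all arrays. Proepicardium and septum transversum markers (8 of 8) summed to 1699 to 1820 against 1300 to 1369. Gata5 was higher of 4 tested, and read 830 and 807 against 440 and 455 within these sums. Tbx18, Lhx9 and Gata4 did not pass (log2 folds 0.10, 0.24 and −0.04), and Lhx2, Hlx, Foxf1 and Osr1 were at or below the control. Markers of intermediate mesoderm and nephric tissue, which makes Wt1, summed to 355 to 378 against 512 to 531 (5 of 6 with a probe set), with 0 of 2 tested passing (limma; 1 lower at an unadjusted p under 0.05) and Lhx1 at or below the control.

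Genes most like Wt1 over the 4 arrays, by Euclidean distance between centred log2 values, were Maged1, Tom1, Reep5, Zfp768 and Mfng, at distances of 0.018 to 0.035. Most like Krt18 were Mettl22, Irx6, Anxa1, Usf2 and Palm, at 0.020 to 0.036. Anxa1 encodes annexin A1, a phospholipid-binding protein, and its log2 fold was −0.65 (limma, adjusted p = 0.0152). Within a distance of 0.2 lay 601 of 8408 genes for Wt1 and 288 for Krt18, so this likeness is shared by many genes.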

How the data were processed

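The authors deposited 1 linear intensity per probe set and array, made with MAS5 per the submitters' processing notes; its version is not given in the sources used here, and no detection calls were used. Run records show that the 4 arrays share a chip lot, a day and a fluidics station, and each used a module of its own, so module and array cannot be told apart.

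Intensities of the 22626 probe sets other than controls were multiplied, array by array, to bring their 2% trimmed mean to 500. The 13403 probe sets whose mean over the arrays reached 100 entered limma 3.58.1 in R 4.3.3 (lmFit, eBayes with trend, 7.43 total degrees of freedom) as log2 of intensity plus 50, with region as the only term and p-values adjusted by Benjamini and Hochberg over all of them. Folds include the added 50. The background was the brightest of 27 Bacillus subtilis controls per array. Within-array ratios are of plain scaled intensities. A gene outside the members was read by its brightest probe set, and a list names up to 4 passing genes that did not overlap between regions, by size of fold, or else its 2 brightest; further genes named were chosen after their values were seen. The likeness rule took the 5 nearest genes to Wt1 and to Krt18. The members and lists were chosen with earlier results of these data known. Alternatives changed the scaling, pseudocount, filter, variance prior, pairing and set of arrays. The number of arrays, 2 per region, limits the precision. Python 3.11.15 with matplotlib 3.10.9 made the figures.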

Additional observations from a re-analysis of the deposited data

How the results depend on the processing

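Over 13 alternatives, the count of lower member probe sets was 2 or 3 except for 1 without a filter on low values (Krt19 missed, as more probe sets were tested), 0 with eBayes without trend (limma; 3 lower at an unadjusted p under 0.05), and 0 to 1 with each array left out (2 to 4 unadjusted). It was 3 with the replicate number as a block, where Upk3b 1454881_s_at was added. Same-lettered arrays of the regions deviated with a correlation of 0.06, so the letters were not taken as pairs. The count of higher member probe sets was 1 with median scaling and 0 otherwise. At an unadjusted p under 0.05 (limma) it was 1 in the main fit, and 3 with quantile normalisation and with median scaling. That unadjusted count was 2 with a pseudocount of 1, with no filter and with eBayes without trend. Median scaling moved the median log2 fold of all probe sets tested to 0.09 and, over all probe sets, gave 1714 higher and 459 lower calls against 970 and 882. With each array left out, log2 folds ran from −0.0010 to 0.25 for Wt1, −0.53 to 0.021 for Krt8 1420647_a_at, −0.42 to 0.024 for Podxl 1417396_at and −0.12 to 0.41 for Podxl 1448688_at. Of 149 fits of single member probe sets, 131 kept direction and side of the threshold, 9 lost a call, 5 gained one and 4 turned sign. Intervals of 0.28 to 0.53 on either side of a log2 fold limit what 2 arrays per region can resolve.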
